A study of Bos taurus with 6 samples.

Results

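Chaperones of the heat shock protein families were examined in testes of Wandong cattle, a local breed of Bos taurus, before and after maturity. Members were the entries of the gene table whose symbol begins with DNAJA, DNAJB, DNAJC, HSPA, HSPB or HSP90, each HSPA and HSPB followed by a number, or with HSPH1, HSPD1 or HSPE1. The rule used only names and found 73 of the 47249 genes. They carry 72 symbols, since HSPD1 has a second, shorter entry on chromosome 22 (1722 bases against 10396 on chromosome 2), written HSPD1-chr22 here. The samples were untreated testes of 3 immature calves (age 3 months) and of 3 mature bulls (age 3 years), all physically healthy, with 1 library of ribosomal RNA-depleted total RNA per animal. The deposited unit is FPKM, the number of fragments scaled to transcript length and to the mapped fragments of the library, without counts. The counting error of a value is therefore unknown, and error is given here as the spread between animals.

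Heat shock proteins are molecular chaperones, which bind unfolded or partly folded proteins and keep them from aggregating. HSP70 proteins (the HSPA genes) bind and release their clients in a cycle driven by ATP, J-domain proteins (the DNAJ genes) bring clients to them and start the ATP hydrolysis, and exchange factors of the HSPA4 and HSPH1 group reset the cycle. HSP90 proteins act late in folding on kinases and receptors, the small heat shock proteins (HSPB) hold clients without ATP, and HSPD1 with HSPE1 forms the folding chamber of mitochondria. In the testis, meiotic and later germ cells are known for chaperones of their own, such as HSPA2 and HSPA1L, beside those of other cells.

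The library labelled calf 3 stood apart. Summed FPKM of markers of oligodendrocytes (13017 against 19.7 to 29.4 in the other libraries), astrocytes (2696 against 59.8 to 148) and neurons (810 against 4.47 to 15.6) were highest in it, for 6 of 6, 5 of 5 and 6 of 6 genes. Markers of Leydig cells summed to 0.502 in it, against 1141 and 1406 in the other calves and 1465 to 2738 in bulls, and the Sertoli cell markers WT1, GATA4 and FSHR were listed at 0. The whole Sertoli list summed to 1797 and 1493 in calf 1 and calf 2, to 449 in calf 3 and to 194 to 231 in bulls. CLDN11, which oligodendrocytes also express, held 429 of the 449 in calf 3 and at most 84.0 in a bull. The label of calf 3 is therefore in doubt, and each member whose call changed without calf 3 is given with both results. Other values are from all libraries unless stated. Markers of later germ cells separated the ages: in calves and bulls, spermatocyte markers summed to 10.3 to 25.6 and 286 to 362, round spermatid markers to 3.38 to 7.58 and 824 to 892, and elongating spermatid markers to 9.2 to 11.4 and 14162 to 16013. All 8 round spermatid genes, all 8 of elongating spermatids and 7 of 8 spermatocyte genes had each bull above each calf. The spermatogonial list summed to 111 and 145 in calf 1 and calf 2, to 284 in calf 3 (201 of it UCHL1, which neurons also express, with DMRT1 at 0.0938) and to 132 to 144 in bulls. The peritubular myoid list summed to 14.7 to 47.2 in calves and 60.3 to 69.9 in bulls. In the same order, the endothelial list summed to 8.91 to 33.3 and 10.7 to 15.3, and red blood cells to 1.39 to 3.58 and 0.22 to 1.26. The macrophage list summed to 40 to 57.2 and 142 to 210, but its genes were split. AIF1 (10.8 to 21.4 and 94.2 to 167) and MRC1 had each bull above each calf. CSF1R (5.51 to 30.7 and 2.62 to 3.25) and CD68 had each bull below each calf, and CD163 overlapped. The part of this change in cell types in the chaperone results was not tested, and in whole tissue fewer cells of a type and less RNA per cell cannot be told apart.

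Of the 73 members, 69 passed the filter of at least 1 FPKM in at least 3 of the 6 libraries. DNAJC22, HSPA6, HSPB3 and HSPB7 did not pass, with values of at most 1.89 FPKM in any library. A gene under 1 FPKM in every calf could pass only through its bulls. The filter thus fixed the direction of its change, and its adjusted p does not test that direction. Among the members, DNAJB3, DNAJB7, DNAJB8, DNAJB13, DNAJC5B, DNAJC28 and HSPB9 were such genes. A call required a limma adjusted p under 0.05 together with a difference between bulls and calves of at least 1 in mean log2(FPKM + 1), here named the log2 fold change and positive where bulls were higher. By this rule 25 members were higher in bulls, 36.2% of those tested against 35.7% of all genes tested. Another 6 members (8.7%) were lower, against 9.61% of all genes tested, so the families as a whole were called about as often as genes in general. In 32 tested members each bull was above each calf (46.1% of all genes tested), and in 17 each bull was below each calf (21.3%). The members' median log2 fold change was 0.53 and that of all genes 0.43. Without calf 3, 27 members were higher and 8 lower, with backgrounds of 37.9% and 13.6%. Scaling changed this split: with quantile normalization, 17 members were higher and 16 lower (backgrounds 21.1% and 25.1%), and the medians were −0.03 for members and −0.26 for all genes. All 31 called members kept their sign under each scaling tried.

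What set the members apart from each other was the size of the change. HSPB9, a small heat shock protein expressed mainly in testis, rose by 9.89 on the log2 scale, whereas HSPA1A, the classical stress-induced HSP70, fell by 2.17. By bounds set after the values were seen, 9 members stood under 3 FPKM in each calf and above 40 in each bull: DNAJB3, DNAJB7, DNAJB8, DNAJB13, DNAJC5B, DNAJC5G, DNAJC28, HSPA1L and HSPB9. They are 13.0% of the tested members, and 2.06% of all genes tested (373 of 18115) lay within the same bounds. The bounds followed the values, and any gene within them passes the filter through its bulls. The shares are therefore a description and not a test.

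**Figure D1:**
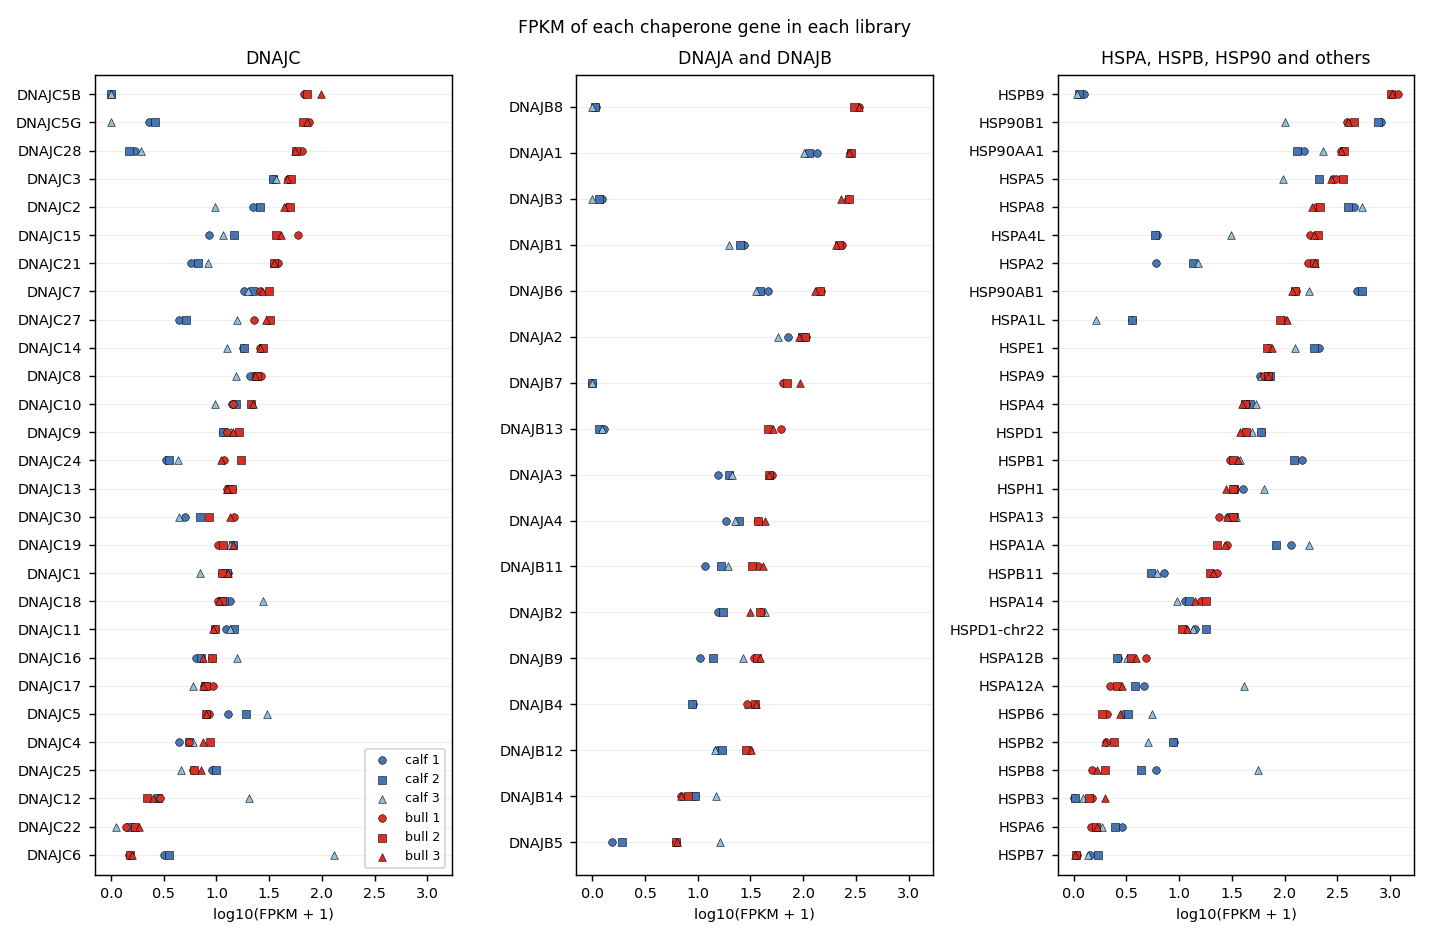
Level of each of the 73 chaperone genes in each library as log10(FPKM + 1), in 3 panels by family and ordered by the mean of the bulls, with blue symbols for calves (light blue triangles for calf 3) and red symbols for bulls. HSPB9, DNAJB8, DNAJB3, DNAJB7 and DNAJC5B lie near 0 in the calves and far to the right in the bulls. For DNAJC6, HSPB8 and HSPA12A, calf 3 lies far to the right of all other libraries, and the other calves lie above the bulls.

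The DNAJB family, J-domain proteins related to DNAJB1, had the largest fraction of its own members called higher in the fit to all libraries. Of its 13 members, all tested, 8 (61.5%, against 35.7% of all genes tested) were called higher and none lower. DNAJB3, DNAJB7, DNAJB8 and DNAJB13 are among these 8 and passed the filter only through their bulls. The share is therefore a description and not a test. The median log2 fold change was 1.32. Without calf 3, 11 were higher and none lower (backgrounds 37.9% and 13.6%). After quantile normalization 6 were higher and 1, DNAJB14, was lower (backgrounds 21.1% and 25.1%). DNAJB8, a testis-expressed J-domain protein that prevents aggregation, was at 0.0781, 0.0583 and 0 FPKM in calves 1 to 3 and at 335, 304 and 334 in bulls 1 to 3. The gene was thus at or close to 0 in every calf and among the 5 most abundant members in every bull. Its log2 fold change was 8.28 (standard error, SE, 0.13, limma adjusted p = 2.53e-06). DNAJB3, a close relative also known from testis, was at 0.228, 0.161 and 0 FPKM in calves and 265, 271 and 229 in bulls, and rose by 7.83 on the log2 scale (SE 0.16 and adjusted p = 2.68e-06). DNAJB7 was listed at 0 in all 3 calves and at 63.5, 68.7 and 92.0 FPKM in bulls. DNAJB13, a part of the radial spokes of the sperm flagellum, lay between 0.163 and 0.28 FPKM in calves and between 45.5 and 61.0 in bulls (log2 fold change 5.44, adjusted p = 6.18e-06). Groups did not overlap for any of these 4 genes, and together they made 0.104% to 0.425% of the summed DNAJB values in calves and 56.1% to 57.7% in bulls.

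DNAJB3, DNAJB7 and DNAJB8 are short in the table. DNAJB3 spans 1096 bases (chromosome 3, 113406610 to 113407705), DNAJB7 spans 1061 (chromosome 5, 112121010 to 112122070) and DNAJB8 spans 696 (chromosome 22, 59370198 to 59370893), each with 1 listed transcript. DNAJB3 overlaps UGT1A6, DNAJB7 overlaps XPNPEP3, DNAJB8 overlaps a gene listed without a symbol (ENSBTAG00000051049) and DNAJB13 (12729 bases, chromosome 15, 53393791 to 53406519) overlaps PAAF1. The table gives no strand, so fragments of a member and of a gene across it cannot be told apart here. Such an overlap was found for 34 of the 73 members.

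The stress-inducible DNAJB1, the main J-domain partner of HSP70 in the cytosol, was present at both ages. It had 26.3, 23.9 and 18.7 FPKM in calves against 233, 216 and 203 in bulls, a rise of 3.20 (SE 0.18, adjusted p = 4.08e-05). Every bull was several times above every calf. DNAJB6, which holds back aggregation of polyglutamine proteins, had 44.9, 38.0 and 34.4 FPKM in calves and 148, 144 and 128 in bulls, and its log2 fold change was 1.82 (adjusted p = 0.000264). DNAJB11 and DNAJB9, which work in the lumen of the endoplasmic reticulum, were called higher, at 1.26 (adjusted p = 0.00416) and 1.20 (adjusted p = 0.0289), but neither was called after quantile normalization. DNAJB9 had 25.9 FPKM in calf 3 against 9.56 and 12.9 in the other calves, and leaving out any library but calf 3 ended its call.

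DNAJB2, DNAJB4 and DNAJB5 were not called with all libraries but were called higher when calf 3 was left out. DNAJB5, a cytosolic relative of DNAJB1, was at 0.532 and 0.904 FPKM in calf 1 and calf 2, at 15.2 in calf 3 and at 5.19, 5.19 and 5.36 in bulls. Calf 3 was thus above every bull, and the other calves below every bull. The log2 fold change was 0.79 (adjusted p = 0.490) with calf 3 and 1.87 (adjusted p = 9.61e-05) without it. For DNAJB4, another such relative, the values were 1.32 (adjusted p = 0.0665) and 1.91 (adjusted p = 3.91e-05). For DNAJB2, which is known for high levels in neurons, they were 0.69 (adjusted p = 0.205) and 1.15 (adjusted p = 0.000498). DNAJB12 and DNAJB14, which sit in the membrane of the endoplasmic reticulum, were not called, at 0.97 and −0.58.

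Among the 4 DNAJA members, J-domain proteins closest to the bacterial DnaJ, DNAJA1 and DNAJA3 were called higher and none lower. The share called higher was 50.0%, against 35.7% of all genes tested. DNAJA1, a cytosolic partner of HSP70, had 133, 112 and 99.7 FPKM in calves and 278, 285 and 270 in bulls. The highest calf was below the lowest bull, and the log2 fold change was 1.28, with an SE of 0.19 (adjusted p = 0.00194). DNAJA3, which works in mitochondria, had 1.37 (adjusted p = 0.000772). DNAJA4 (0.85) and DNAJA2 (0.44), both cytosolic, stayed under the fold required. After quantile normalization none of the 4 was called, with a median of 0.37.

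In the DNAJC family, a mixed group that shares only the J domain, 9 of 27 tested members were higher (33.3% against 35.7% of all genes tested). Another 1 was lower (3.7% against 9.61%), and without calf 3 these were 8 and 1 (backgrounds 37.9% and 13.6%). The median was 0.42, and −0.29 after quantile normalization, when 6 were higher and 3 lower (backgrounds 21.1% and 25.1%). The cysteine-string proteins, which tether to vesicle membranes and serve exocytosis, moved apart. DNAJC5, the form known from nerve endings, had 11.9, 18.1 and 28.9 FPKM in calves and 7.52, 6.94 and 6.97 in bulls. Every calf was above every bull, and calf 3 was the highest. Its log2 fold change was −1.26 (adjusted p = 0.0161), and −0.95 without calf 3, under the fold required. Leaving out any 1 bull also ended the call. DNAJC5B (chromosome 14, 30355171 to 30448182) was listed at 0 in all calves and at 66.7, 71.5 and 96.8 FPKM in bulls. DNAJC5G (chromosome 11, 72359159 to 72362283) had 1.29, 1.61 and 0 in calves and 74.3, 65.1 and 71.7 in bulls (log2 fold change 5.30, adjusted p = 9.53e-05). DNAJC5B therefore made none of the summed DNAJC5 and DNAJC5B value in calves and 89.9% to 93.3% of it in bulls.

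DNAJC28, a member with few described functions, rose from 0.679, 0.465 and 0.930 FPKM in calves to 64.0, 56.0 and 54.8 in bulls, by 5.14 on the log2 scale (adjusted p = 7.19e-06). With DNAJC5B and DNAJC5G it made at most 0.762% of the DNAJC sum in calves and 31.0% to 35.2% in bulls. The increases of other members were smaller. DNAJC21, a factor of ribosome assembly, rose by 2.40 (adjusted p = 0.000122). DNAJC15, a protein of the inner mitochondrial membrane, rose by 1.98 (adjusted p = 0.00156), and DNAJC24, which takes part in making diphthamide, rose by 1.82 (adjusted p = 0.00104). These 3 kept their call with each library left out and under each scaling. DNAJC27, a small GTPase with a J domain (1.97, adjusted p = 0.0170), and DNAJC30, a mitochondrial protein (1.14, adjusted p = 0.0176), each lost the call when 1 of 3 libraries was left out, for DNAJC27 calf 2, bull 2 or bull 3 and for DNAJC30 calf 1, bull 1 or bull 3. Quantile normalization ended the calls of both (1.37 and 0.62). DNAJC2, which binds the ribosome, was called higher (1.40, adjusted p = 0.0219) but not without calf 3 (0.97), without any 1 bull or after quantile normalization (0.66).

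DNAJC6, known as auxilin, strips clathrin from vesicles and is most abundant in neurons. It was at 2.15 and 2.55 FPKM in calf 1 and calf 2, at 130 in calf 3 and between 0.472 and 0.579 in bulls. All calves were above all bulls, but calf 3 was far above the other calves. With all libraries the log2 fold change was −2.90 with a standard error of 1.45 and no call (adjusted p = 0.139). Without calf 3 it was −1.14 and called (adjusted p = 0.000363). DNAJC12, a co-chaperone of aromatic amino acid hydroxylases, showed 19.3 FPKM in calf 3 against 1.77 and 1.80 in the other calves and 1.19 to 1.92 in bulls, and was not called with calf 3 (−1.10) or without it (−0.14). The remaining tested members of the family, DNAJC1, DNAJC3, DNAJC4, DNAJC7, DNAJC8, DNAJC9, DNAJC10, DNAJC11, DNAJC13, DNAJC14, DNAJC16, DNAJC17, DNAJC18, DNAJC19 and DNAJC25, were not called and lay between −0.60 for DNAJC18 and 0.72 for DNAJC14. Of these, DNAJC11 (−1.05) and DNAJC18 (−1.17) were called lower after quantile normalization.

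**Figure D2:**
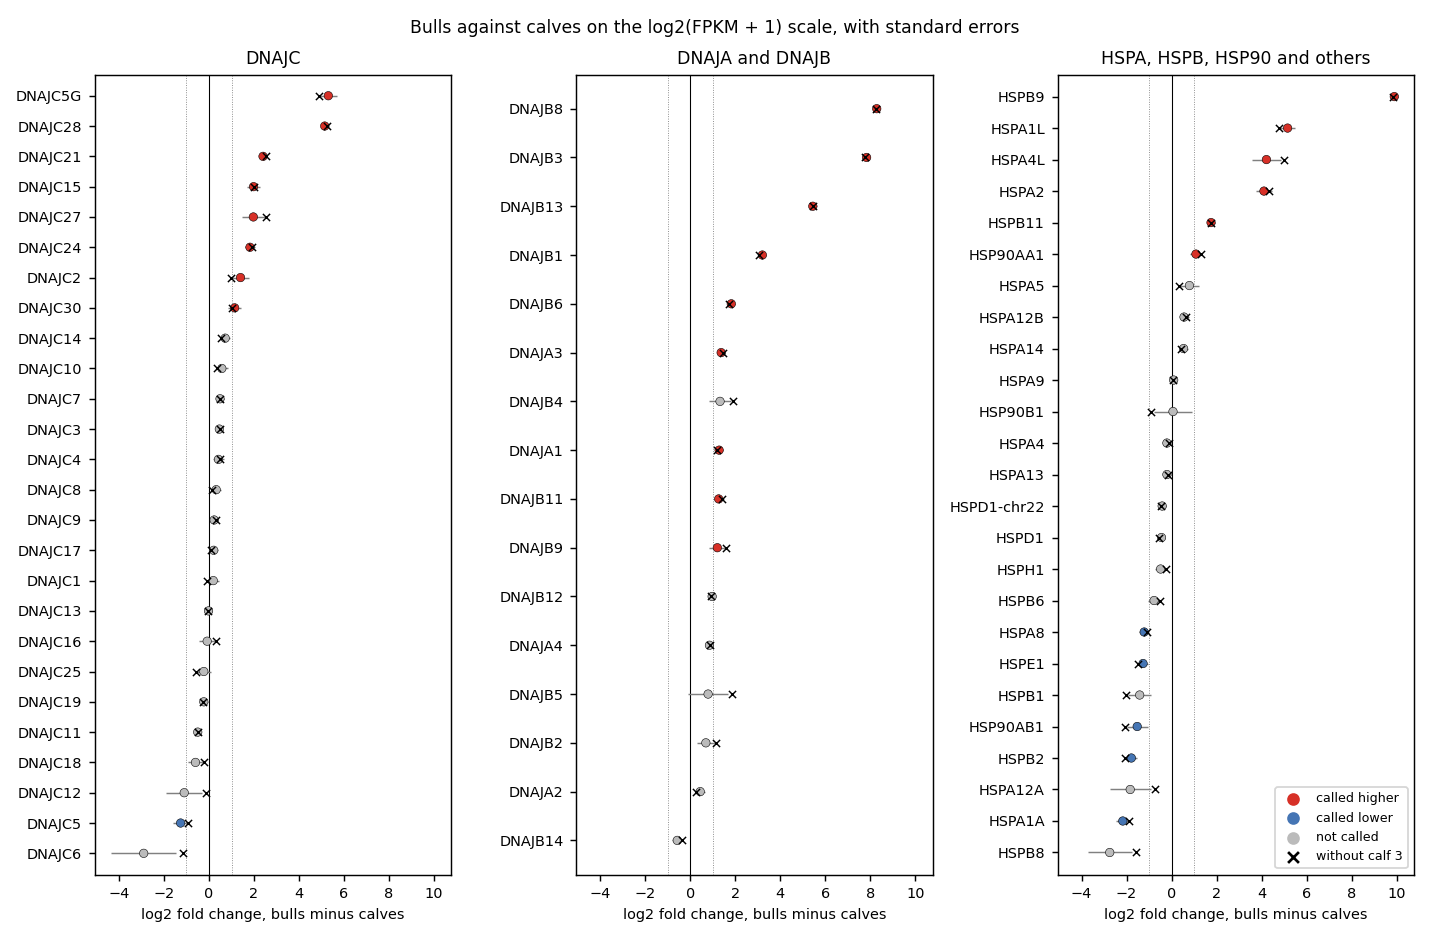
Log2 fold change of the tested members (bulls minus calves, of FPKM + 1) with standard errors as lines, coloured by call, and crosses for the value without calf 3; dotted lines mark a fold change of 2. DNAJB7 and DNAJC5B, listed at 0 in all calves, are left out. Crosses lie away from the points mainly for DNAJC6, DNAJB5, HSPB8, HSPA12A and HSP90B1.

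Within the HSP70 proteins of cytosol and nucleus (HSPA1A, HSPA1L, HSPA2, HSPA6 and HSPA8), the sum of FPKM overlapped between ages, at 577, 501 and 724 in calves and 487, 516 and 506 in bulls, while its makeup differed. HSPA8, the constitutive HSP70 of most cells, had 453, 402 and 538 FPKM in calves and 196, 214 and 182 in bulls, and fell by 1.22 (SE 0.22, limma adjusted p = 0.00453). HSPA1A (chromosome 23, 27520317 to 27522790) had 114, 82.4 and 170 in calves and 27.5, 22.1 and 26.5 in bulls, and fell by 2.17 (SE 0.29, adjusted p = 0.00115). For both genes every calf was above every bull. The call of HSPA8 was lost when each library was rescaled to the same total (−1.01, adjusted p = 0.0692), and that of HSPA1A was not lost under any alternative.

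HSPA1L and HSPA2 moved the other way. HSPA1L, a close relative of HSPA1A found in germ cells, lies beside it on chromosome 23 (27523225 to 27527209). It had 2.60, 2.59 and 0.627 FPKM in calves and 98.3, 88.9 and 104 in bulls, a rise of 5.15 (SE 0.34, adjusted p = 7.07e-05). HSPA2 (chromosome 10, 76679838 to 76682342), needed for meiosis in male mice, had 5.09, 12.4 and 14 in calves and 165, 190 and 193 in bulls, a rise of 4.10 (SE 0.36, adjusted p = 0.000215). No calf reached the level of any bull for either gene, and calf 1 was the lowest for HSPA2. Together they made 1.33%, 3.00% and 2.02% of the summed HSP70 value in calves and 54.0%, 54.1% and 58.7% in bulls. The coding sequences of this family are alike, so fragments shared between its genes may have been split by the authors' counting, and single values are uncertain to that extent.

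Shares within a library do not depend on how that library is scaled, and 7 pairs of related members were compared in this way. HSPA1L made 2.22%, 3.05% and 0.367% of the sum of HSPA1L and HSPA1A in calves and 78.2%, 80.1% and 79.6% in bulls. HSPA2 made 1.11%, 3.00% and 2.54% of the sum with HSPA8 in calves, and 45.7%, 47.1% and 51.5% in bulls. The bulls lay close together in both pairs. The within-library log2 ratio, taken on FPKM + 1, was higher in bulls by 7.32 for the first pair and by 5.32 for the second. Unlike the shares, this ratio depends on scaling where a value is low, as for HSPA1L in calf 3 (0.627 FPKM). In each of the 7 pairs the exact permutation test over the 6 libraries gave p = 0.1 (two-sided), the smallest that 3 against 3 allows, and therefore 0.1 after Benjamini-Hochberg adjustment too.

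HSPA4L and HSPA4, exchange factors that reload HSP70, formed another such pair. HSPA4L (chromosome 17, 29817687 to 29876207) had 5.11, 4.93 and 30 FPKM in calves and 175, 209 and 191 in bulls. Calf 3 was the highest calf but still far below the bulls, and the log2 fold change was 4.21, with an SE of 0.66 (adjusted p = 0.00234), or 5.0 without calf 3. HSPA4 stayed within 38.2 to 53.2 FPKM in all libraries and was not called (−0.21, adjusted p = 0.271) except as lower after quantile normalization (−1.0). HSPA4L thus made 9.60% to 36.0% of the sum of both in calves and 80.5% to 83.4% in bulls. HSPH1, the third member of this group of exchange factors, was not called (−0.49, adjusted p = 0.168) except after quantile normalization (−1.27).

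The other HSPA members tested were not called with all libraries. HSPA5, the HSP70 of the endoplasmic reticulum, had 285, 211 and 96.4 FPKM in calves and 309, 356 and 275 in bulls. Calf 1 lay within the range of the bulls and the other calves below it, and the gene was not called (0.79, adjusted p = 0.166). HSPA9, its counterpart in mitochondria, had a log2 fold change of 0.09 (adjusted p = 0.633). HSPA12A, an atypical member known from brain, was at 40.5 FPKM in calf 3, at 3.63 and 2.81 in the other calves and at 1.19 to 1.88 in bulls. It was not called with calf 3 or without it, but was called lower after quantile normalization (−2.71). HSPA12B, HSPA13 and HSPA14 had log2 fold changes of 0.55, −0.21 and 0.53. Of the 12 tested HSPA genes, 3 were higher and 2 lower in bulls, with the same counts without calf 3. The share called higher was below that of all genes tested (35.7%, and 37.9% without calf 3). The share called lower was above it (9.61%, and 13.6% without calf 3). After quantile normalization 3 were higher and 4 lower (backgrounds 21.1% and 25.1%).

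**Figure D3:**
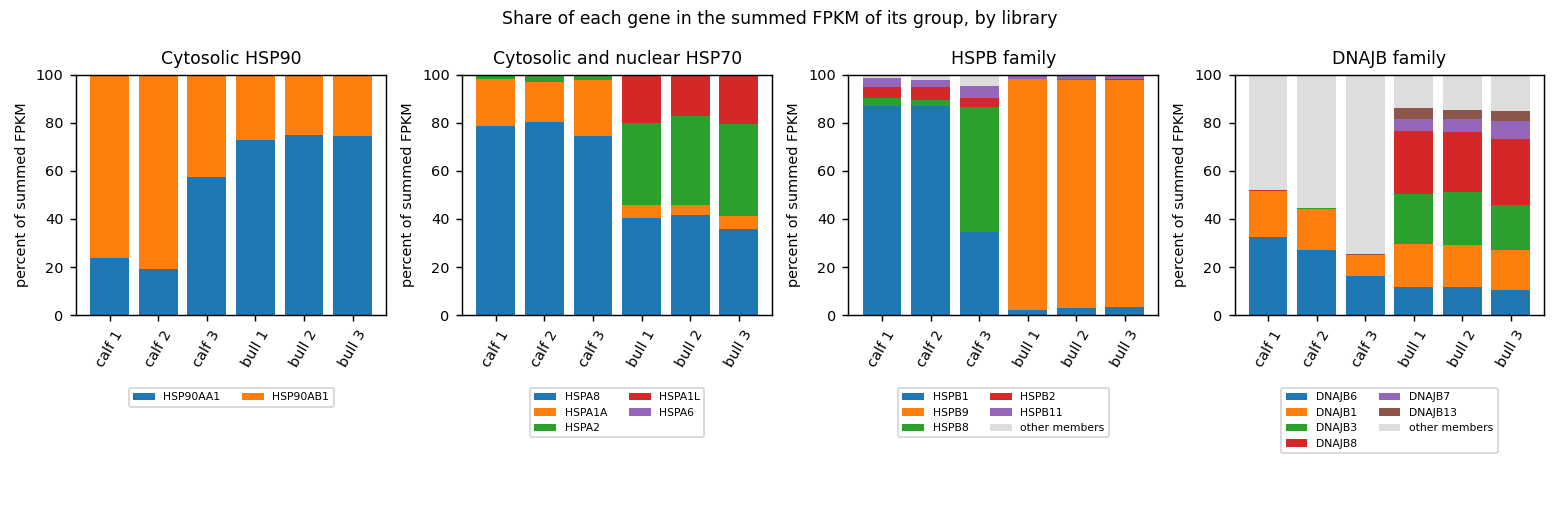
Percent of the summed FPKM of 4 groups contributed by each gene, per library: cytosolic HSP90, cytosolic and nuclear HSP70, the HSPB family and the DNAJB family. In bulls HSPA2 and HSPA1L fill 54.0% to 58.7% of the HSP70 bar, HSPB9 nearly the whole HSPB bar and DNAJB8 with DNAJB3 a large part of the DNAJB bar, whereas HSPB8 stands out in calf 3.

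The cytosolic HSP90 forms exchanged places. HSP90AB1 (chromosome 23, 17752495 to 17758156), the constitutive form, had 481, 548 and 171 FPKM in calves and 128, 124 and 118 in bulls. HSP90AA1 (chromosome 21, 66936747 to 66945064), the inducible form, had 151, 129 and 229 in calves and 340, 369 and 343 in bulls. The ages did not overlap for either gene, but calf 3 lay nearer to the bulls than the other calves did in both. The log2 fold changes were −1.53 for HSP90AB1 (SE 0.47, adjusted p = 0.0334) and 1.08 for HSP90AA1 (SE 0.27, adjusted p = 0.0157). Without calf 3 they were −2.05 (adjusted p = 1.41e-05) and 1.32 (adjusted p = 0.000104). Both calls were lost when any 1 library other than calf 3 was left out, and that of HSP90AA1 also under each scaling. HSP90AA1 made 23.9%, 19.1% and 57.3% of the sum of both in calves and 72.7%, 74.8% and 74.4% in bulls, and the log2 ratio was higher in bulls by 2.61, or 3.37 without calf 3.

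HSP90B1, the HSP90 of the endoplasmic reticulum, was the most abundant member in calf 1 and calf 2. It had 818, 768 and 100 FPKM in calves and 391, 453 and 403 in bulls. The bulls lay between calf 3 and the other calves. The log2 fold change was 0.06 (adjusted p = 0.959), and −0.93 without calf 3 (adjusted p = 0.000559), under the fold required. Summed with HSPA5 and DNAJB11, the chaperones of this compartment came to 1114, 994 and 215 in calves and 737, 841 and 719 in bulls.

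In the small heat shock proteins, 2 of 6 tested members were higher (33.3% against 35.7% of all genes tested) and 1 lower (16.7% against 9.61%). Without calf 3 these were 2 and 3 (backgrounds 37.9% and 13.6%). After quantile normalization 2 were higher and 4 lower, namely HSPB1, HSPB2, HSPB6 and HSPB8 (backgrounds 21.1% and 25.1%). HSPB9 (ENSBTAG00000024979, chromosome 19, 42257571 to 42258084, overlapping RAB5C) was at 0.251, 0.118 and 0.0722 FPKM in calves and at 1197, 1022 and 1046 in bulls. In bulls it was the most abundant of all 73 members, and in calves it ranked 68th or 69th. The log2 fold change was 9.89, with an SE of 0.15 (adjusted p = 2.53e-06), and the filter fixed its direction. HSPB11, also known as IFT25 and a part of the transport machinery of cilia rather than a typical chaperone, had 6.24, 4.45 and 5.15 FPKM in calves and 21.8, 18.6 and 19.8 in bulls (1.75, adjusted p = 0.000328). HSPB9 made 94.6% to 95.7% of the summed HSPB value in bulls and at most 0.15% in calves.

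HSPB1, the widespread small heat shock protein that protects actin filaments, had 146, 122 and 36.8 FPKM in calves and 29.4, 31.4 and 35.2 in bulls. Calf 3 was close to the bulls, the other calves far above them. It was not called with all libraries (−1.42, adjusted p = 0.0605) but was without calf 3 (−2.03, adjusted p = 3.10e-05). HSPB8, which works with BAG3 in the removal of damaged proteins, had 5.03 and 3.38 FPKM in calf 1 and calf 2, 55.2 in calf 3 and 0.478 to 0.966 in bulls. Its log2 fold change was −2.75 (adjusted p = 0.0521), and −1.60 without calf 3 (adjusted p = 0.000605). HSPB8 made 51.9% of the HSPB sum in calf 3, against 3.00% and 2.40% in the other calves. HSPB2, known from muscle, had 7.97, 7.70 and 4.05 FPKM in calves and 1.01, 1.41 and 0.969 in bulls, and was called lower (−1.79, adjusted p = 0.00210). HSPB6, another muscle form, was not called (−0.78) except as lower after quantile normalization (−1.59).

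HSPE1, the lid of the mitochondrial folding chamber, had 210, 188 and 125 FPKM in calves and 68.2, 67.2 and 74.3 in bulls. Each calf was above each bull, and the log2 fold change was −1.27, with an SE of 0.24 (adjusted p = 0.00496). HSPD1, which forms the chamber itself and lies across HSPE1 on chromosome 2, had 58.4, 59.3 and 48.3 FPKM in calves and 41.4, 42.1 and 36.9 in bulls. Its change of −0.45 (adjusted p = 0.0493) was under the fold required, and the entry on chromosome 22 had −0.42 (adjusted p = 0.0802). After quantile normalization HSPD1 was called lower (−1.21) and HSPD1-chr22 was not called (−0.99). HSPD1 made 21.8% to 27.9% of the sum with HSPE1 in calves and 33.2% to 38.5% in bulls.

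The role of calf 3 can be read for each member. In 20 of 69 tested members, the log2(FPKM + 1) of calf 3 differed by 1 or more (2-fold) from the average of the other calves, 12 above and 8 below, against 29.4% of all genes tested. Between calf 1 and calf 2, 1 member, HSPA2, was that far apart. DNAJC6 (5.30), HSPB8 (3.45), HSPA12A (3.31) and DNAJB5 (3.25) were furthest above, and HSP90B1 (−2.97), HSPB1 (−1.83) and HSP90AB1 (−1.58) furthest below. Of the called members, 24 higher and 5 lower were called in the same direction with and without calf 3. The markers of brain cells were high in the same library, and their part in these values was not tested.

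**Figure D4:**
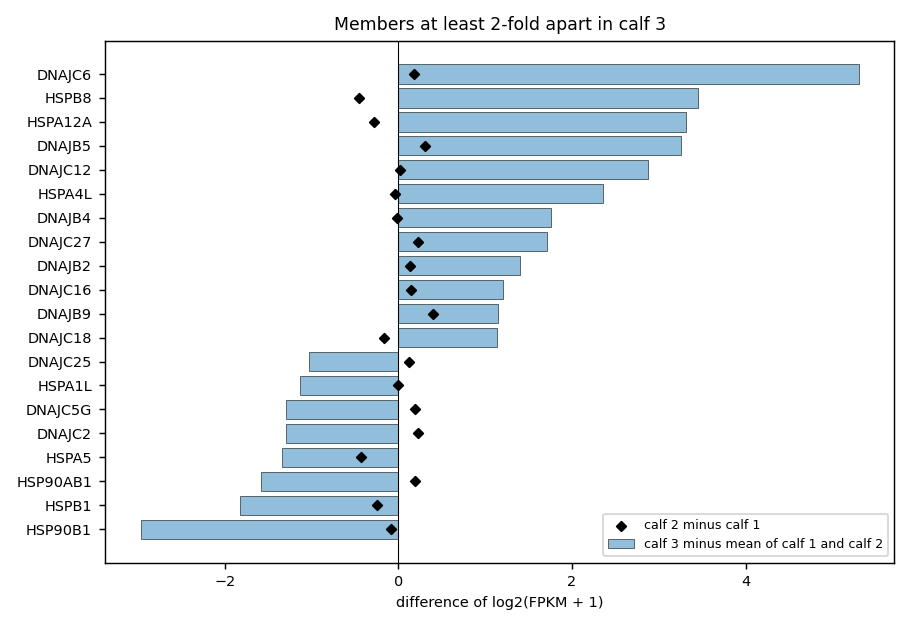
The 20 tested members at least 2-fold apart in calf 3, as the difference of log2(FPKM + 1) between calf 3 and the mean of calf 1 and calf 2 (bars) and between calf 2 and calf 1 (diamonds). The bars run from −2.97 for HSP90B1 to 5.30 for DNAJC6, and the diamonds stay near 0.

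The table of transcripts lists 172 transcripts of the members, 63 of them assembled from the reads. Of the 100 tested, 38 were higher in bulls (background 34.8%) and 6 lower (background 9.37%), and 39 and 8 without calf 3 (36.1% and 13.1%). Among the 20 genes with 2 or more transcripts tested, none had transcripts called in both directions. DNAJB6 showed an uneven change. DNAJB6-203 had 16.2, 5.53 and 4.46 FPKM in calves and 93.0, 91.1 and 77.3 in bulls, and rose by 3.37 (limma adjusted p = 0.00124). DNAJB6-201 had 22, 25.3 and 25.4 in calves and 46.5, 42.1 and 38.0 in bulls, and its 0.77 (adjusted p = 0.00763) was under the fold required. The share of DNAJB6-203 in the gene was 36.0%, 14.6% and 12.9% in calves and 62.9%, 63.4% and 60.5% in bulls. DNAJB12, DNAJB2 and HSPA14 were not called as genes but had a transcript called higher. In DNAJB12, these were DNAJB12-201 (1.60, adjusted p = 0.00534) and the antisense-named DNAJB12-AS2 and DNAJB12-AS4, both listed at 0 in all calves, and DNAJB12-AS4 was not called after quantile normalization. In DNAJB2 it was DNAJB2-201 (1.55, adjusted p = 0.00854), at 1.87 without calf 3 and, uncalled, 0.99 after quantile normalization. In HSPA14, a ribosome-bound HSP70, it was HSPA14-202 (1.41, adjusted p = 0.0419), which was not called without calf 3 or after quantile normalization (0.76).

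**Figure D5:**
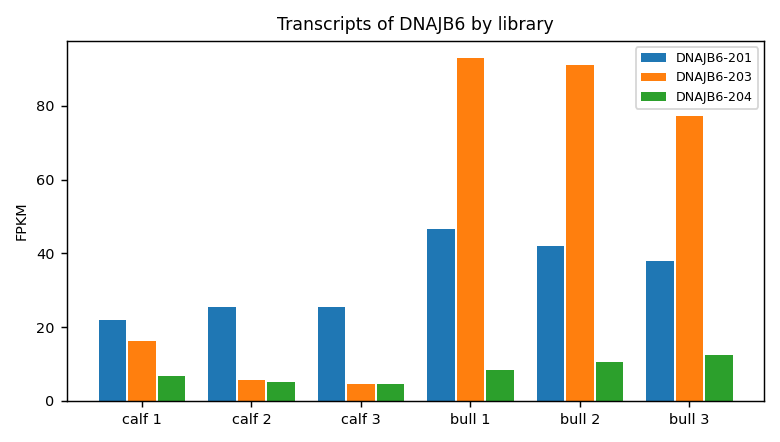
FPKM of the 3 tested transcripts of DNAJB6 in each library (bars from 0). DNAJB6-203 reaches 77.3 to 93.0 in the bulls, above DNAJB6-201 in each of them, whereas in each calf it lies below DNAJB6-201.

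Regulators and partners outside the name rule were read from 6 lists of 85 symbols, of which 81 table rows were tested. Of these, 30 were higher (37.0% against 35.7% of all genes tested) and 4 lower (background 9.61%), with a median of 0.53, so that increases were called about as often as in all genes. Without calf 3, 30 were higher and 8 lower (backgrounds 37.9% and 13.6%). Of the heat shock transcription factors and their regulators, 3 of 6 were higher (50.0% against 35.7% of all genes tested) and none lower. They were HSF5, known from meiotic germ cells (3.93, adjusted p = 2.38e-05), HSF2BP, which takes part in meiotic recombination (3.05, adjusted p = 0.000334), and HSF1, the main activator of the heat shock response (1.27, adjusted p = 0.0113). HSF1 was not called after quantile normalization (0.68). HSF1 had 8.35, 11.3 and 4.92 FPKM in calves and 22.3, 18.8 and 19.6 in bulls, and 0.98 without calf 3, under the fold required. HSBP1 was called higher only without calf 3 (1.44, adjusted p = 7.92e-05), so 3 genes of this list were higher then too. It had 45.8, 38.6 and 140 FPKM in calves and 123, 109 and 116 in bulls.

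Of the HSP70 co-chaperones and exchange factors, 8 of 17 were higher (47.1% against 35.7% of all genes tested) and none lower. Without calf 3, 8 were higher and 1, BAG2 (−1.18), was lower (backgrounds 37.9% and 13.6%). After quantile normalization 3 were higher and 2 lower (backgrounds 21.1% and 25.1%). With all libraries the largest increases were those of GAK, a relative of auxilin (2.88), BAG6, needed for spermatogenesis in mice (2.40), and SIL1, an exchange factor for HSPA5 (2.28). Without calf 3 they were 2.82, 1.89 and 1.63, and BAG4, at 2.03, came second. SIL1 was not called after quantile normalization (1.53). GAK and DNAJC6 share the task of uncoating clathrin, and GAK had 16.2, 17.9 and 14.9 FPKM in calves and 136, 124 and 120 in bulls. Of the HSP90 co-chaperones, 5 of 26 were higher, 19.2% against 35.7% of all genes tested. They were led by FKBP6, needed for male meiosis (4.81), SPAG1, a factor of dynein assembly (2.07), and FKBP4, a partner of steroid receptors (1.68). Without calf 3 these were 3.75, 2.46 and 1.32, and SGTA (1.64) and TRAP1 (1.45) were above FKBP4. SGTB (−1.49) and UNC45A (−1.02) were lower, UNC45A not without calf 3.

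Of the subunits of the cytosolic chaperonin TRiC and its partner prefoldin, 9 of 16 were higher (56.2% against 35.7% of all genes tested) and none lower. After quantile normalization 5 were higher and 1 lower (backgrounds 21.1% and 25.1%). CCT6B, the testis form of a TRiC subunit, had 1.36, 2.34 and 1.70 FPKM in calves and 136, 145 and 128 in bulls (5.63, adjusted p = 5.66e-06). CCT8L2 (3.36) and CCT3 (1.95) followed. Of the folding factors of the endoplasmic reticulum, 4 of 14 were higher, 28.6% against 35.7% of all genes tested. Among them 3 were testis forms: CALR3 (6.45), PDILT (5.95) and CLGN (4.09, or 3.28 without calf 3). ERO1A, an oxidase for disulfide bonds, was the only lower gene (−1.29, background 9.61%). Without calf 3, 4 genes were higher (background 37.9%) and the lower genes numbered 5 (background 13.6%). The 5 were TXNDC5 (−2.19), PDIA4 (−2.08), ERP29 (−1.28), CANX (−1.16) and ERO1A (−1.02). Among small heat shock proteins outside the rule, ODF1 of the sperm tail was higher (7.48) and CRYAB lower (−3.70, or −2.67 without calf 3). CRYAB, which overlaps HSPB2, had 30.4, 45.5 and 325 FPKM in calves and 3.66, 5.76 and 5.93 in bulls.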

How the data were processed

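The authors removed ribosomal RNA, mapped the reads with TopHat2 and assembled transcripts with StringTie. They deposited FPKM values per gene and per transcript, 1 column per library, and their Methods name Cuffdiff for levels of circular RNA. The tool behind the gene values is not given in the sources used here. The sums of FPKM per library differed (587066 to 1098715), so the FPKM values themselves had not been set to a common sum. Printed positions are the deposited ones and match the ARS-UCD assembly: 71 of 73 members overlapped the RefSeq locus (ARS-UCD2.0) of their symbol. The Methods name UMD3.1.1.

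With R 4.3.3 and limma 3.58.1, log2(FPKM + 1) was fitted on all genes (18115) or transcripts (23212) with at least 1 FPKM in at least 3 of 6 libraries, with an empirical Bayes trend, two-sided, and Benjamini-Hochberg adjustment over all of them. The pseudocount of 1 understates changes of low genes. Replicates are animals. The procedure was tested on simulated data. Alternatives were another pseudocount, no filter, 3 scalings, array weights, a replicate block and leaving out each library.

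Members and gene lists were chosen with earlier results of these data known. Named genes were, per family, the 5 largest increases and 3 largest decreases called, a fixed list, members whose call changed without calf 3, and the leading genes of the partner lists. Other members, such as DNAJB9, DNAJC12, DNAJC24, DNAJC27, DNAJC30 and HSPA12A, were named after their values were seen. Protein and promoter sequences were not used here.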

Additional observations from a re-analysis of the deposited data

How the results depend on the processing

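Counts of called members ranged from 20 to 27 higher and from 4 to 8 lower with each library left out, and 20 of the 25 higher and 4 of the 6 lower members kept their call each time. Quantile normalization moved most: 16 members lower, 3827 genes higher and 4538 lower in the whole table, 25 member transcripts higher and 19 lower, and 18 partner genes higher and 11 lower. Rescaling each library to the same total left 1151 genes and 1 partner gene lower, and array weights gave 8 partner genes lower. Partner genes called lower ranged from 2 (without bull 1 or bull 3) to 8 (without calf 3), against 4. Among the members named by the rule, the uncalled DNAJB2, HSPA9 and HSP90B1 changed sign: DNAJB2 to −0.03 and HSPA9 to −0.70 after quantile normalization, HSPA9 to −0.05 and HSP90B1 to −0.09 with median-of-ratios scaling, and HSP90B1 to −0.86 with array weights, −0.93 without calf 3 and −0.01 without bull 2 (range with each library left out −0.93 to 0.58). The cause was not tested. Of 39 named members, 19 kept direction and call under all 13 alternatives. Same-numbered animals were not paired (correlations of their deviations 0.0246 to 0.0341), and with a replicate block 24 members were higher and 6 lower. FPKM values carry no counts, so the depth behind low values is unknown. The planned search of promoters and proteins for motifs was not run.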
